A study of Homo sapiens with 6 samples.

Results

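The 10 genes described here encode the transcription factors and cofactors that set the erythroid programme: GATA1, GATA2, TAL1, LYL1, LMO2, LDB1, KLF1, NFE2, GFI1B and ZFPM1. They were chosen by name from 19864 protein-coding genes on chromosomes 1 to 22 and X. Their regulatory elements were then found by position. A start peak lay within 500 bp of an annotated transcript start of the gene (GENCODE release 29, build GRCh38). A distal peak had no transcript start of any gene within 500 bp and lay within 100 kb of the gene body. The 10 genes had 51 start peaks over the 3 lists, and 70 of the 17909 distal regions lay around them.

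The cells were untreated K562, an established leukaemia line of human origin, labelled lymphoblastoid. Engaged RNA polymerase was mapped by precision run-on sequencing, in which permeabilized cells add a biotin-labelled nucleotide to their nascent RNA. There were 6 libraries in 3 groups of 2: PRO-seq 1M, made by an established procedure from 1M cells, then qPRO-seq 1M and qPRO-seq 250k, both made by a shortened procedure from 1M or 250k cells. Affinity purification was done 3 times in the former procedure and once in the latter, amplification took 11 PCR cycles at 1M and 14 at 250k, and replicates were at least 3 passages apart. Each group had 1 list of dREG peaks, which mark promoters and enhancers from run-on reads on both strands. The lists held 24707 peaks for PRO-seq 1M, 38177 for qPRO-seq 1M and, in the shortest, 15562 for qPRO-seq 250k, with medians of 450, 440 and 430 bp in width. No value per library was analysed, so no difference could be set against a replicate spread and no test between groups was made. The lists hold no read counts, and the depth behind each is unknown. Values below follow this order of lists unless a list is named.

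GATA1 and its relative GATA2 bind GATA motifs in DNA. In red cell precursors GATA1 works in a complex with the helix-loop-helix factor TAL1, which pairs with E proteins, and with LMO2 and LDB1, which hold the complex together. LYL1 is the closest relative of TAL1, KLF1 activates adult globin and many red cell genes, NFE2 binds the globin locus control region with a small MAF partner, GFI1B is a repressor, and ZFPM1 (FOG1) is the zinc-finger cofactor of GATA1. GATA2 acts earlier, in stem and progenitor cells, and gives way to GATA1 as red cells mature.

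Promoters of these genes were searched for motifs of the same factors, and the sequences below, all under peaks, show the matches described. RefSeq promoter windows (GRCh38.p14, 250 bases before to 50 after a RefSeq start) were matched by symbol for 8 of the 10 genes, 11 windows in all, while LMO2 and NFE2 had no entry. GATA motifs (AGATAA or TGATAA on either strand) were in 4 of the 11 windows, against 16.3% of 35116 RefSeq promoters. Those windows belonged to GFI1B, KLF1, LYL1 and TAL1. The 30-base stretches around these matches follow 5′ to 3′ on the gene's strand, with the match in capitals, where TTATCA and TTATCT are the reverse complements. Each lay under a peak of all 3 lists.
GFI1B, chr9:132978566-132978595, plus strand: cctggaaagtttTGATAAgcaaatacggct
LYL1, chr19:13102868-13102897, minus strand: cagccaggctccTTATCAggcgcggccagg
LYL1, chr19:13102839-13102868, minus strand: gcagcctggcccTTATCTgcactgggccag
TAL1, chr1:47232353-47232382, minus strand: cgcggcagtgccTTATCTctgcggcgcaca

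The matches began 116 bases before the RefSeq start in GFI1B, 27 before and 2 after it in LYL1, and 35 before it in TAL1. One LYL1 window also held a combined arrangement of E-box bases and a GATA motif (CTG, then 7 to 9 bases, then AGATAA, a motif that contains the GATA motif), which 0.681% of all promoters had. The KLF1 promoter is shown for the 250 bases before the RefSeq start. Its GATA match, 66 bases before that start, was also under a peak of all 3 lists. The KLF1 window held an E-box (CAGNTG) too, a motif present in 4 of the 11 windows and in 49.9% of all promoters.
KLF1, chr19:12887202-12887451, minus strand: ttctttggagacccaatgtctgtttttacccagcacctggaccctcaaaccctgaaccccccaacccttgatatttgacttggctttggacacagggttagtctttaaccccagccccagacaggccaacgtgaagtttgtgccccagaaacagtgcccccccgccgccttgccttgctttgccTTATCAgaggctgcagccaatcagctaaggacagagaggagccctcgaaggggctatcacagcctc

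The GATA1 window had no GATA match. It had 4 matches to the KLF motif CCNCNCCC, some overlapping, shown in capitals. This motif was in 8 of the 11 windows and in 56.2% of all promoters, so its presence does not set these genes apart. The core TGANTCA, bound by NFE2 and AP-1, was found in 1 window (TAL1) and in 7.71% of all promoters. A match describes letters in the window and does not show binding.
GATA1, chrX:48786340-48786553, plus strand: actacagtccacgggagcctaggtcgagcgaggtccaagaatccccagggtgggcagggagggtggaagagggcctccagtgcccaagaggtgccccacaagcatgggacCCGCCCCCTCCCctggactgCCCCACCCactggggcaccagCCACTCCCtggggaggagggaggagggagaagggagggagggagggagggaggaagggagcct

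All 10 genes had a start peak in both 1M lists, and 8 of 10 had one in the qPRO-seq 250k list, where LMO2 and ZFPM1 had none. Over all protein-coding genes the shares were 52.9%, 54.5% and 44.0%. Wilson 95% intervals, which cover counting error only, ran from 72.2 to 100% for the members in each 1M list and from 49.0 to 94.3% in the 250k list. A start peak in every list was found for 8 members and for 43.1% of all protein-coding genes. The 10 genes were listed for their known role in this lineage, so a high share was built into the choice.

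Having a peak did not mean having a high-scored one. The dREG score, as the authors deposited it, was turned into a percentile within its own list, and the highest-scored start peak of each gene was taken. The median of the member genes was 57.0 in PRO-seq 1M, 64.3 in qPRO-seq 1M and 38.6 in qPRO-seq 250k. All protein-coding genes with a start peak had medians of 76.4, 80.7 and 68.2. Only 3, 3 and 1 of the members lay above them: TAL1, LDB1 and GFI1B in PRO-seq 1M, LYL1, LDB1 and GFI1B in qPRO-seq 1M, and GFI1B in qPRO-seq 250k. GFI1B was above the PRO-seq 1M median only through a peak that also lay near a start of TSC1. With peaks near another gene's start left out for all genes, the medians over genes were 71.7, 75.4 and 63.1, and 2, 3 and 1 members lay above them, TAL1 and LDB1 in PRO-seq 1M and the same members as before in the other lists. Percentiles from lists of different length rank peaks within a list and do not measure a change between protocols.

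**Figure D1:**
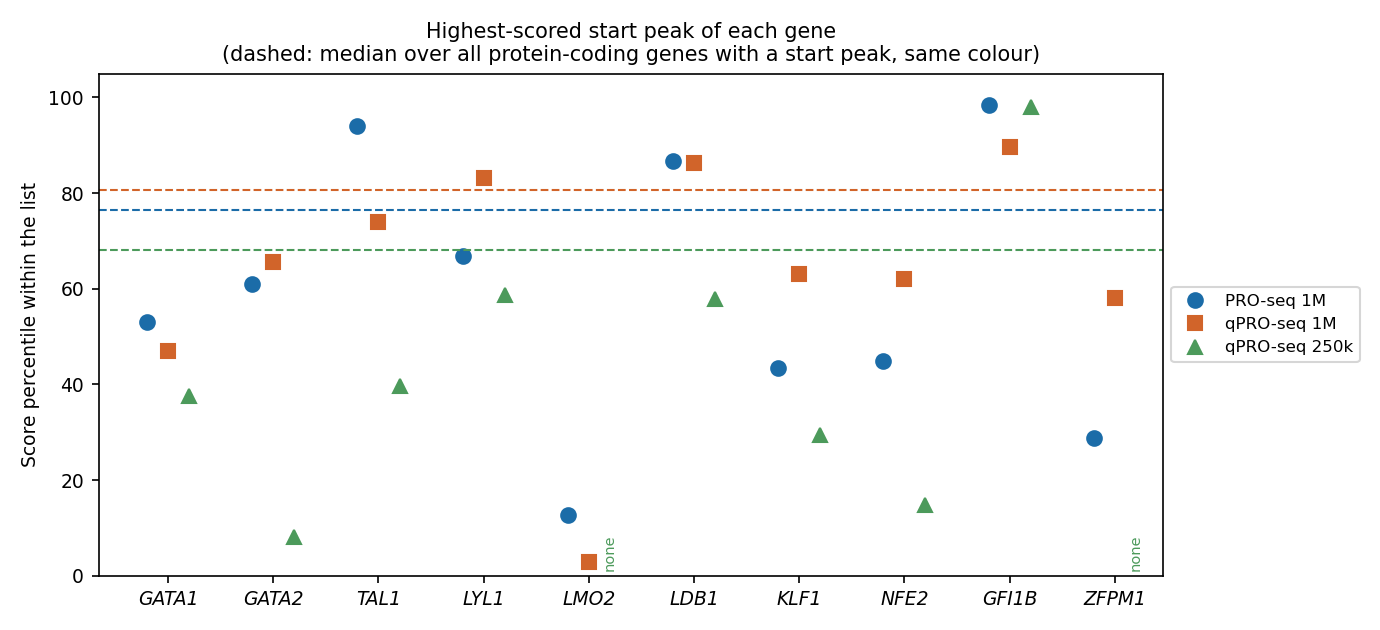
Score percentile within its list (vertical axis) of the highest-scored start peak of each of the 10 genes, with 1 point for each list and "none" where a list had no start peak; dashed lines give the median over all protein-coding genes with a start peak. GFI1B has the highest point in each list (98.4, 89.6 and 98.0), in PRO-seq 1M through a peak shared with TSC1 (its own peak there is at 62.5), and LMO2 is the lowest in both 1M lists (12.6 and 2.88). A qPRO-seq 1M peak of LMO2 at 49.4, 0.776 kb from a start, was counted as distal and is not shown.

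GATA1 (ENSG00000102145.13, chromosome X, 48786554 to 48794311, plus strand) had 1 start peak in each list, over its single group of starts. The percentiles were 53.1, 46.9 and 37.5, with scores of 0.642, 0.523 and 0.494. Its peak was therefore near the middle of each list, and 21.2%, 13.8% and 19.0% of genes with a start peak had a top peak at or below it. The peak centres lay 4, 14 and 14 bp from the annotated start.

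GATA2 (ENSG00000179348.11, chromosome 3, 128479427 to 128493185, minus strand) has 5 groups of starts, and the peaks marked a distal and a proximal promoter. At the 5′-most start, 128493185, a peak was found in PRO-seq 1M (percentile 58.4) and in qPRO-seq 1M (54.1), but in the 250k list there was none. The proximal promoter, at 128487916 and 5269 bp downstream of the first, had a peak in all lists, at percentiles 60.9, 65.5 and 8.15. That promoter thus had the higher-scored peak in both 1M lists. Its 250k peak had a deposited p-value of 0.0358 and a score of 0.358, close to the lowest score in that list (0.281). The proximal peak also lay within 500 bp of a further GATA2 start at 128488530. No list had a peak at the starts at 128490648 and 128482078.

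TAL1 (ENSG00000162367.11, chromosome 1, 47216290 to 47232220, minus strand) had peaks over several starts near its 5′ end. PRO-seq 1M joined the upstream part into 1 peak of 990 bp (47231751 to 47232740, percentile 94.1). Both qPRO-seq lists divided the same stretch into 2 peaks, at percentiles 74.0 and 49.3 in qPRO-seq 1M and 39.6 and 36.9 in qPRO-seq 250k. The GATA match shown above lay in this stretch. A further peak over the start at 47231218 had percentiles of 28.2, 42.8 and 13.2. Near the starts from 47229453 to 47229771, PRO-seq 1M had 1 peak (20.3), qPRO-seq 1M had 2 (27.0 and 21.7) and the 250k list none. The start at 47224076 had no peak in any list.

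LYL1 (ENSG00000104903.4, chromosome 19, 13099033 to 13103161, minus strand) had 2 start peaks side by side in each list. The higher-scored peak had percentiles of 66.9, 83.1 and 58.7 and covered both GATA matches printed above. Its neighbour, over the 5′-most start, had percentiles of 49.9, 53.8 and 28.4. The arrangement of a downstream peak ranked above an upstream one was the same in the 3 lists.

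LMO2 (ENSG00000135363.11, chromosome 11, 33858576 to 33892289, minus strand), a LIM-only protein that links TAL1 to LDB1, had the lowest-ranked start peaks of the members in both 1M lists. They lay at inner starts (33869536 to 33870529), the first of them 21760 bp downstream of the 5′-most start. PRO-seq 1M had peaks at percentiles 12.6 and 11.1 and qPRO-seq 1M had 1 at 2.88, with a deposited p-value of 0.0373. The 250k list had none there. No start peak was found in any list at the 5′-most start, 33892289, or at 33865151. A PRO-seq 1M peak at percentile 17.7 lay 0.562 kb from the 5′-most start, just outside the window, and was counted as distal. In qPRO-seq 1M a peak at percentile 49.4 overlapped the PRO-seq 1M peak at 11.1. It lay 0.776 kb from the nearest start, also outside the window, and was counted as distal. The percentile of 2.88 for LMO2 in qPRO-seq 1M therefore depends on the 500 bp limit, but its low rank does not. A value of 49.4 would lie above that of GATA1 (46.9) alone among the members. It would also lie below the median of 80.7 over all protein-coding genes with a start peak.

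LDB1 (ENSG00000198728.10, chromosome 10, 102107560 to 102120453, minus strand), the dimerizing partner that allows distant elements to be brought together, had a high-scored peak at its 5′-most start in both 1M lists. The percentiles were 86.6, 86.4 and 57.8, with scores of 0.991, 0.918 and 0.612. An inner start at 102114946, 5507 bp downstream, had a peak in PRO-seq 1M (41.6) and in qPRO-seq 1M (52.2) only. No peak lay at the start at 102111133.

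KLF1 (ENSG00000105610.5, chromosome 19, 12884422 to 12887199, minus strand) has a single annotated start and had 1 start peak in each list, at percentiles 43.3, 63.1 and 29.4. Scores were 0.561, 0.653 and 0.451, and the 250k peak had a deposited p-value of 0.012. Its rank among genes with a start peak was low: 14.5%, 25.2% and 13.2% of them had a top peak at or below that of KLF1.

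NFE2 (ENSG00000123405.13, chromosome 12, 54292111 to 54301121, minus strand) had 1 start peak in each list, over its 5′-most starts at 54301015 and 54301121. Percentiles were 44.8, 62.1 and 14.8. The same peaks lay within 500 bp of a start of COPZ1, a coatomer subunit gene. The peaks carry no strand, so the signal could not be assigned to either gene. The inner NFE2 starts at 54297884 and 54295758 had no peak in any list.

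GFI1B (ENSG00000165702.14, chromosome 9, 132944000 to 132991687, plus strand) had the highest-scored start peak of the 10 genes in each list, but in PRO-seq 1M that peak was shared with another gene. Without shared peaks GFI1B ranked first in both qPRO-seq lists, and in PRO-seq 1M came after TAL1, LDB1 and LYL1. In PRO-seq 1M the peak near the starts at 132945533 to 132945551 ranked first, at percentile 98.4. In both qPRO-seq lists the inner promoter, whose starts at 132978651 to 132978711 begin 34651 bp downstream of the 5′-most start, ranked above it. The upstream peak had percentiles of 98.4, 74.8 and 81.8 and the inner one 62.5, 89.6 and 98.0. The upstream peak also lay within 500 bp of a start of TSC1, a growth-regulating gene, in all lists, and of MIR548AW in both 1M lists, so it could not be assigned to GFI1B. The inner peak lay near no other gene's start and covered the GATA match printed above. A further peak, over the start at 132944000, was found in qPRO-seq 1M alone (64.4).

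ZFPM1 (ENSG00000179588.8, chromosome 16, 88453317 to 88537016, plus strand) had 2 start peaks in each 1M list and none in the 250k list. In PRO-seq 1M they had percentiles of 28.9 and 25.5. In qPRO-seq 1M the outer one reached 58.2, and the one touching the annotated start had 3.36 with a deposited p-value of 0.0381. The outer peaks lay 377 and 327 bp from the start.

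**Figure D2:**
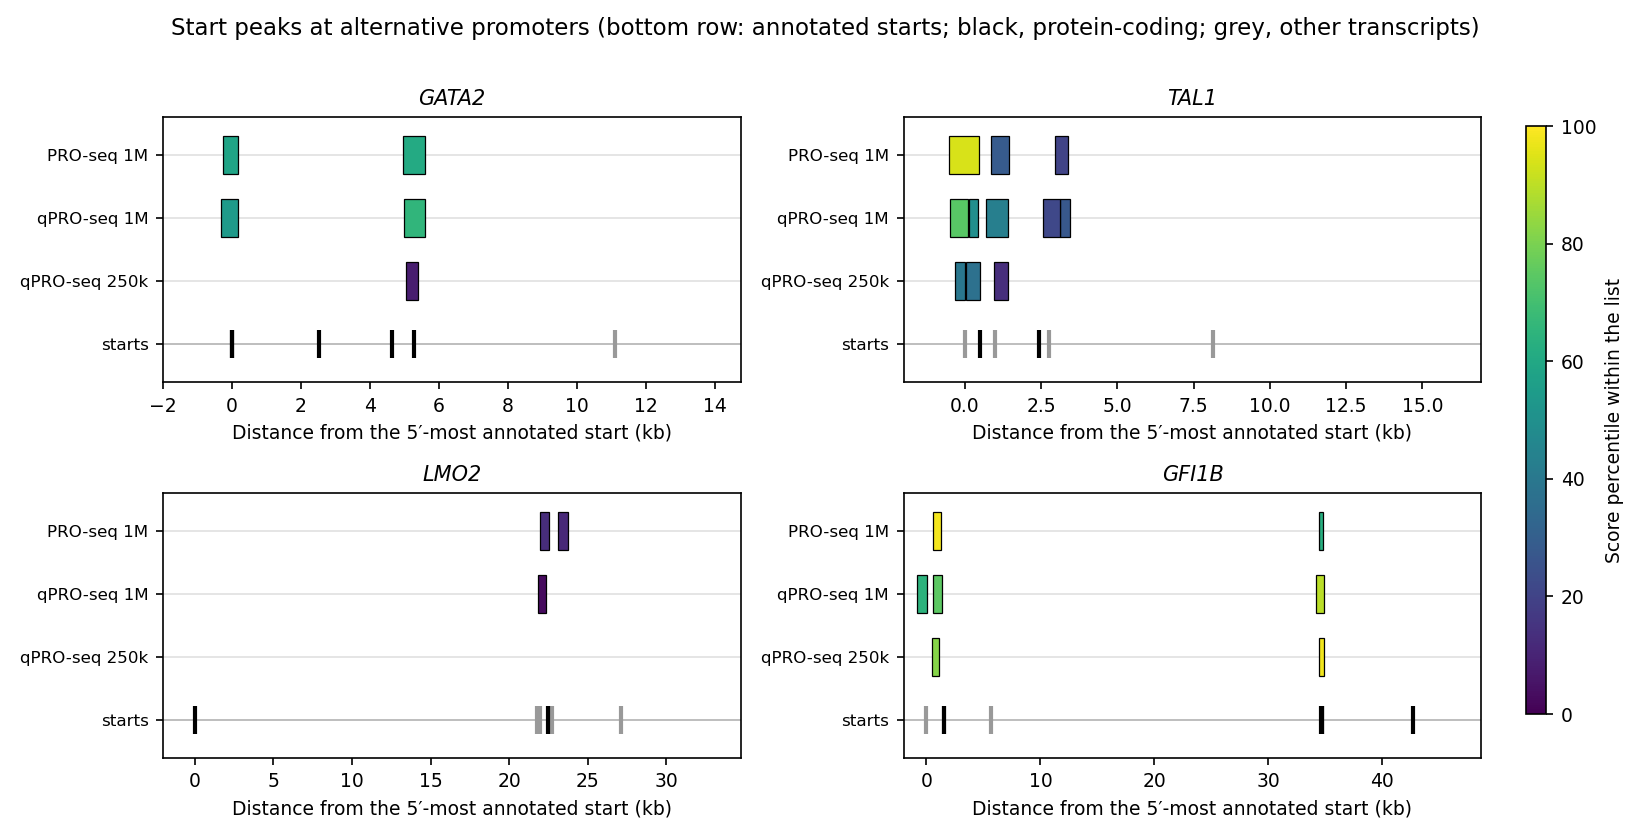
Start peaks (boxes, coloured by score percentile within their list) of GATA2, TAL1, LMO2 and GFI1B against the distance in kb from the 5′-most annotated start, with annotated starts in the bottom row of each panel (black, protein-coding transcripts; grey, other transcripts). The 5′-most LMO2 start has no start peak, and GFI1B has peaks in all 3 lists near the starts at 132945533 to 132945551 and at the inner starts, while its 5′-most start has one in qPRO-seq 1M alone.

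The promoter used was read from which starts had a peak. The 10 genes had 27 groups of starts, counting starts within 500 bp of each other as 1 group. Of these, 11 had a peak in all lists, 5 in 2 lists, 1 in a single list and 10 in none. A peak within 500 bp of 2 groups counted for both, as in GATA2 and TAL1. Peaks near another gene's start, as for NFE2 and GFI1B, were counted too. The same share over the start groups of all genes was not computed, so these counts have no background beside them. Several groups were annotated for 6 genes and 1 group for 4. Without the peaks that lay near another gene's start, 9, 9 and 7 members still had a start peak (NFE2 dropped out), and the median of the top percentiles was 60.9, 65.5 and 39.6. Under the same rule 6733, 7319 and 5214 of the 19864 protein-coding genes had a start peak.

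Most member start peaks were found by more than 1 list, as were most start peaks of all protein-coding genes. Of the 19 PRO-seq 1M start peaks, 19 were overlapped by a peak of another list, as were 19 of 20 in qPRO-seq 1M and 12 of 12 in qPRO-seq 250k. Over all protein-coding genes 93.2%, 85.8% and 99.0% of start peaks were, so the counts of the members were near the background. The 12 pairs of peaks matched one to one between the 1M lists had centres a median of 35 bp apart (0 to 140 bp), against 30 bp over all 8795 such pairs of start peaks. Between qPRO-seq 1M and qPRO-seq 250k the median was 15 bp over 8 pairs (0 to 110 bp), against 30 bp over 7397 pairs. PRO-seq 1M and qPRO-seq 250k gave 35 bp over 8 pairs (10 to 170 bp), against 40 bp over 7385. Peak centres lay upstream of the nearest start for 13 of 19, 14 of 20 and 11 of 12 member peaks, against 64.8%, 63.6% and 70.7% over all protein-coding genes.

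Distal peaks were numerous around these genes. There were 38 in PRO-seq 1M, 63 in qPRO-seq 1M and 18 in qPRO-seq 250k, with medians of 3.5, 5.5 and 1.5 per gene. Over all protein-coding genes the medians were 1, 2 and 0. Joined where they overlapped, the peaks of the 3 lists made 70 regions, with a median of 7 per gene (5 to 11). The median over all genes was 2, and over the 8566 genes with a start peak in all lists it was 3. All 10 members were above that second median, though the window moves with gene length and ran from 203 to 284 kb for the members. These counts are a description, with no test.

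**Figure D3:**
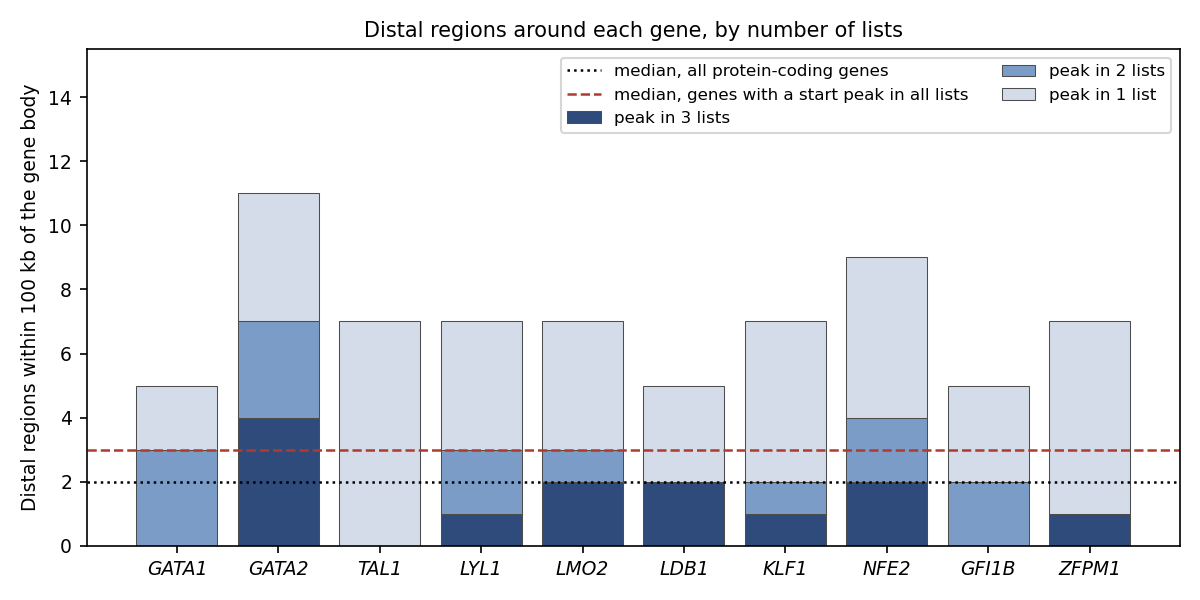
Number of distal regions within 100 kb of each gene body (bar height), split by the number of lists with a peak in the region; lines give the median over all protein-coding genes (2) and over genes with a start peak in all lists (3). GATA2 has the most regions (11) and the most shared by all lists (4), while GATA1, TAL1 and GFI1B have none shared by all.

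The share of regions found by every list was near the background. All 3 lists had a peak in 13 of the 70 regions (18.6%, Wilson interval 11.2 to 29.2%), against 15.9% of all distal regions. A further 14 regions had a peak in 2 lists and 43 in 1. Regions of the qPRO-seq 1M list alone made up 32 of 70 (45.7%), against 54.3% of all distal regions. Most distal regions over all genes were therefore in a single list too. PRO-seq 1M alone had 8 of 70 (11.4%), against 6.34% of all distal regions. The 1M lists together had 12 (17.1%), against 17.9%. The qPRO-seq 250k list alone had 3 of 70, against 286 of all 17909 distal regions. These differences were not tested.

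By peak, 30 of 38 distal PRO-seq 1M member peaks (78.9%) were overlapped by qPRO-seq 1M, against 86.9% of all distal PRO-seq 1M peaks, and 15 (39.5%) by qPRO-seq 250k, against 43.1%. Of the 63 distal qPRO-seq 1M peaks, 32 (50.8%) were overlapped by PRO-seq 1M, against 42.4%, and 17 (27.0%) by qPRO-seq 250k, against 24.4%. Of the 18 distal qPRO-seq 250k peaks, 14 (77.8%) were overlapped by each of the other lists. Over all distal qPRO-seq 250k peaks the shares were 80.2% (by the PRO-seq list) and 93.3% (by qPRO-seq 1M). Member peaks thus ranged from above to below the background, by list. Median percentiles of the distal member peaks were 34.1, 42.1 and 28.2, beside 33.9, 39.6 and 35.2 for all distal peaks.

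Of the 70 regions, 29 were upstream of the gene, 26 downstream and 15 inside it. By annotation, 32 were intergenic, 29 intronic and 9 exonic, in a member or in another gene. For 31 regions the member was the nearest protein-coding gene by transcript start, and 6 of the 13 shared regions were among them. The 31 held none of the regions of NFE2 and LYL1, and 1 of the 7 of KLF1. Distance does not show which gene an element acts on. In 4 regions a start-near peak of another list overlapped the distal peak.

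GATA1 had 5 distal regions, of which 3 were in both 1M lists and none was in the 250k list. The nearest of the shared ones, 48782631 to 48783230, was intergenic and 3.32 kb upstream of the start, with percentiles of 72.1 in PRO-seq 1M and 37.0 in qPRO-seq 1M. An intronic region (48787881 to 48788330) was in qPRO-seq 1M alone, at 37.4. Both lists also had a region upstream, 88.5 kb from the start.

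GATA2 was the member with the most distal regions, 11, which 97.1% of protein-coding genes fell short of. The region 128497521 to 128498040, in an intron of the antisense gene GATA2-AS1 and 4.34 kb upstream of the distal promoter, had percentiles of 55.8, 83.2 and 58.8. A region within a GATA2 intron (128482841 to 128483610) had 52.3, 75.7 and 3.83. The other regions shared by all lists, 128409941 to 128410550 (30.9, 31.2 and 28.7) and 128415891 to 128416440 (34.2, 51.7 and 72.0), were downstream of GATA2 and nearer to the start of DNAJB8. At 54.2 and 55.5 kb upstream, regions were present in both 1M lists only.

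TAL1 had 7 distal regions and each was in a single list, which was the case for no other member. Single-list regions were common in general, at 43 of the 70 member regions. Among the other members they ran from 4 of 11 for GATA2 to 6 of 7 for ZFPM1. Over all distal regions 54.3% were in qPRO-seq 1M alone, so most were in a single list there too. The exonic region 47227851 to 47228360 was in qPRO-seq 1M, at percentile 60.3. Downstream, 3 regions nearest to the start of PDZK1IP1 lay 41.8 to 44.0 kb from the nearest TAL1 start, 2 of them from qPRO-seq 1M and 1 from qPRO-seq 250k, without overlap between the lists. Just outside the 100 kb limit, at 102 kb, both 1M lists had a peak, at percentiles 72.4 and 87.1. LYL1 had 7 regions, 1 of them in all lists: 13162621 to 13163470, 59.5 kb upstream and nearest to the start of IER2, with 69.3, 70.2 and 55.1.

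LMO2, whose peaks within 500 bp of a start ranked lowest in both 1M lists, had one of the highest-scored distal elements. The intergenic region 33936681 to 33937930, 44.4 kb upstream of the 5′-most start, had percentiles of 64.6, 94.4 and 79.2. The values of 94.4 and 79.2 were the highest among distal member peaks of their lists. A region 49.3 kb upstream was in both qPRO-seq lists (62.7 and 64.6). Another, 98.6 kb upstream and nearest to the start of CAPRIN1, was in all lists (38.1, 65.4 and 27.7). LDB1 had 5 distal regions, 2 of them in all lists. One was 0.758 kb upstream of the start (102121211 to 102121830, with 25.4, 88.9 and 36.3) and one was nearest to ARMH3 (102057981 to 102058610, with 11.8, 82.4 and 15.6).

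KLF1 had 7 distal regions, of which 1 was in all lists. That region, 12884981 to 12886640, lay inside the gene over its exons and had 43.8, 48.5 and 26.8. NFE2 had 9, with 2 in all lists. The region 54306881 to 54307550, 5.76 kb upstream in an intron of COPZ1 and nearest to a COPZ1 start, had 80.2, 82.5 and 68.7. The PRO-seq 1M value was the highest among distal member peaks of that list. The other, 54358871 to 54359680, was nearest to the start of GPR84 and had 14.7, 43.9 and 3.93.

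GFI1B had 5 distal regions, none in the 250k list. The highest-scored of them, 133004041 to 133004570, lay downstream of the gene and 17.4 kb from its nearest start, with 76.6 in PRO-seq 1M and 81.5 in qPRO-seq 1M. An intronic region (132984041 to 132984530) had 48.0 and 17.1. ZFPM1 had 7, of which 5 were inside the gene. Only the intronic region 88497651 to 88498190 was in all lists, at percentiles 2.20, 42.1 and 10.6.

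**Figure D4:**
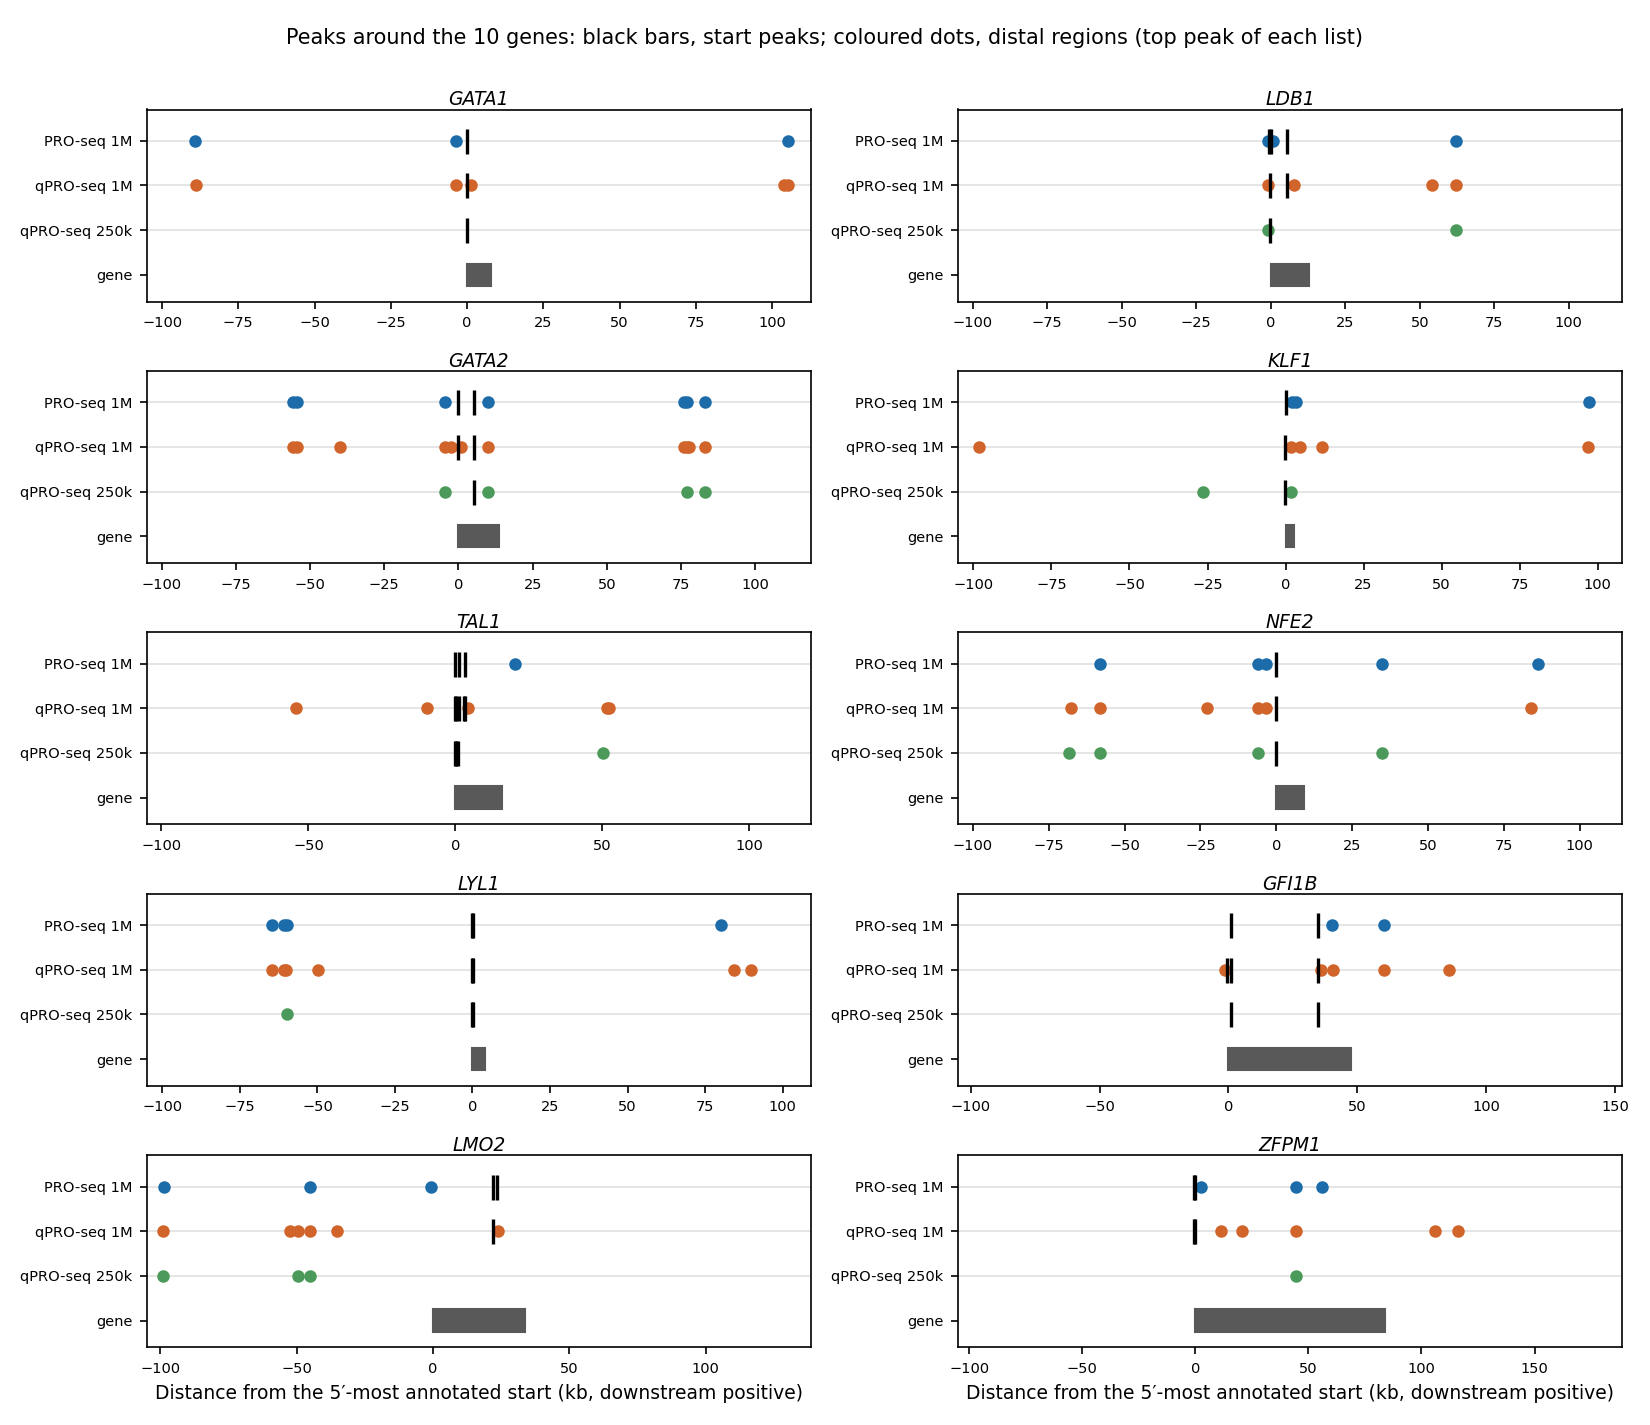
Positions of start peaks (black bars) and of the top peak of each distal region (dots) in each list, by distance in kb from the 5′-most annotated start of the 10 genes; the grey box is the gene body. TAL1 has no distal dot at the same place in 2 lists, while GATA2 has 4 regions marked in all 3 lists. Of the 70 regions of the 10 genes, 43 are in a single list.

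Genes listed as possible partners of these factors mostly had start peaks. Of these 29 genes, for binding partners, cofactors and genes of similar name, 25, 26 and 21 had one in the 3 lists. In every list, 21 had one. Among those were the E proteins TCF3, TCF4 and TCF12, the LDB1-binding SSBP2 and SSBP3, the demethylase KDM1A and the acetyltransferases EP300 and CREBBP. KDM1A, which GFI1B recruits, had percentiles of 98.4, 95.6 and 98.4. None was found for LDB2, SSBP1 and RUNX1T1, and SSBP4, CBFA2T3, GFI1, MAFK and CHD4 had one in some lists only. A place among the 29 genes, as for LDB2 and SSBP1, does not show that the protein binds a member. The small MAF partners of NFE2 differed: MAFF had 89.1, 78.4 and 83.1, and MAFK had 29.2 and 28.6 in the 1M lists and none in the 250k list.

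Relatives of these factors were read in the same way. Of 16 family members, 10, 10 and 9 had a start peak, and 9 had one in every list. The 6 with none in any list were GATA3, GATA4, GATA6, TAL2, LMO1 and LMO3. GATA5 had one in each list (83.3, 91.1 and 46.6), as did ZFPM2, KLF2, KLF3, KLF4, KLF6 and the NFE2-related NFE2L1, NFE2L2 and NFE2L3. KLF5 had one in the 1M lists only. The shares over all genes are given above, and no test of these lists was made.

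Marker genes were read the same way to set the labelled cell type beside the data. Of 14 erythroid markers, 9, 10 and 9 had a start peak, and 9 had one in every list, among them HBG1, HBZ, ALAS2, EPOR and TFRC. Over all protein-coding genes the shares were 52.9%, 54.5% and 44.0%. Some of these peaks ranked low: HBG1 had percentiles of 16.0, 67.0 and 17.2, and HBZ had 2.34, 31.8 and 20.7. HBA1, HBA2, SLC4A1 and AHSP had none, and GYPB had one in qPRO-seq 1M only. The HBG2 peaks were all shared with starts of HBE1 and other genes, and the alpha and gamma globin copies are nearly alike in sequence, so their values are uncertain. Of 5 megakaryocyte markers, ITGA2B and ITGB3 had a start peak in each list, the latter shared with another gene, and GP9, GP1BA and PF4 had none.

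Lymphoid markers were largely without peaks beside the label lymphoblastoid, and most of the listed myeloid and megakaryocyte markers had none either. These short lists were not tested and do not settle the cell type. Of 7 B lymphoid genes only EBF1 had one, in the 1M lists (31.9 and 50.7). MS4A1, CD79A, CD79B, PAX5, CD22 and BLNK had none. Of 8 T lymphoid genes only CD4 had one, in qPRO-seq 1M at percentile 0.424, while CD3D, CD3E, CD3G, CD2, CD7, LCK and CD8A had none. Of 8 myeloid genes SPI1 had one in every list and CEBPA in both 1M lists, and CEBPE, MPO, CSF1R, CD14, ITGAM and LYZ had none.

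Some peaks lay close to the limits of both windows. The 500 bp limit also separated overlapping peaks of different lists in the 4 regions given above. At LMO2 and LDB1 a peak counted as distal overlapped a PRO-seq 1M peak counted as a start peak. The start peaks nearest the 500 bp limit from inside were an LDB1 peak in PRO-seq 1M at 438 bp (percentile 19.2) and the upstream GFI1B peak in qPRO-seq 250k at 413 bp. From outside they were an LDB1 peak at 548 bp (28.6), a KLF1 peak in qPRO-seq 1M at 559 bp (16.7) and the LMO2 peak already given. For the distal limit the last regions inside were those of LMO2 at 98.6 kb and KLF1 at 98.0 kb. The first peaks outside were those of KLF1 at 101 kb (44.8) and, at 102 kb, those of LYL1 (12.4 in qPRO-seq 1M) and TAL1.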

How the data were processed

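The files were 3 dREG peak lists, 1 for each group of 2 libraries, matched to groups by the sample descriptions. The score of each peak was used as the authors deposited it and only ranked within its list. The deposited p-value (no statement of adjustment) was quoted for some peaks and used as a filter in an alternative setting only. Positions were in the other columns, with starts printed here counted from 1. The submitters' processing notes name fastp 0.20.0, Bowtie2 2.3.5.1, deepTools 3.1.3, UMI-tools and builds hg38 and GRCh38, with no role or order. The dREG version, its thresholds and the pooling of replicates are not given in the sources used here. Depth is unknown, since the lists hold no counts.

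The genes and lists were chosen with earlier results of these data known. All 10 members were named. Of the marker genes, 3 are not reported here. For each, the distal region in the most lists with the highest mean percentile, and the one in the most lists nearest the gene start, were named. Further regions and peaks were named after their values were seen. Analyses used Python 3.11.15, numpy 2.4.6, pandas 2.3.3 and scipy 1.17.1, with gene positions from GENCODE release 29, and were tested on simulated data. Regions joined peaks sharing at least 1 bp. Percentiles give the share of the list's peaks with a score at or below that peak's. No p-value was computed. Alternatives changed the start window, distal window, nearest-gene rule, p and score limits, list length, merging, overlap and transcript class. A further 2 kinds, leaving out peaks near another gene's start and counting start-near peaks in regions, were chosen after seeing the data.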

Additional observations from a re-analysis of the deposited data

How the results depend on the processing

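Of 51 alternative values, 39 stayed within 1.5 times the reported count, or within the counting interval for the share, and 12 moved. The 38 distal PRO-seq 1M peaks became 22 within 50 kb, 16 with lists cut to equal length, 18 where the member was the nearest gene and 9 at or above the median score. The 63 distal qPRO-seq 1M peaks became 38, 20, 28 and 24 under the same settings. The 18 distal qPRO-seq 250k peaks became 7 under the nearest-gene rule and 7 at or above the median score. Member genes with a start peak at or above the median score numbered 6 in PRO-seq 1M (without LMO2, KLF1, NFE2 and ZFPM1) and 3 in qPRO-seq 250k. Each of these settings removes peaks by construction. At p up to 0.01 the genes with a start peak numbered 10, 9 and 6, and at equal list length 8, 7 and 8. The share of distal regions in all lists ran from 14.8 to 20.4%. No paired analysis was possible because each group has 1 list for both replicates and no value per library, so leaving out a replicate could not be done either. The planned share of distal regions with a GATA match was not run, since no genome sequence was used here. The unknown depth limits every count of peaks, and a peak missing from a list does not show an inactive element.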
